A study of Rattus norvegicus with 6 samples.

Results

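Drd2, the gene of the D2 dopamine receptor, and Lef1, the gene of a transcription factor of the Wnt pathway, were followed through 6 libraries of polyA RNA from rat brain. Drd2 was high in 1 library of the SHR strain and Lef1 was high in 1 library of the BNLx strain, while both genes were low in the other libraries. The 2 genes are 2 of 24744 quantified loci, and both were found by name in the deposited annotation. They were chosen by their measured gene and isoform counts in these same libraries, so their levels and isoform shares are described without a test.

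The D2 receptor couples to inhibitory G proteins and is the target of antipsychotic drugs. In the striatum it marks the spiny neurons of the indirect pathway, which also make enkephalin and differ from the D1-type spiny neurons of the direct pathway, and it is an autoreceptor on midbrain dopamine neurons. Lef1 belongs to the Lef and Tcf family of DNA-binding proteins, which bring beta-catenin to target genes after a Wnt ligand has bound its Frizzled and Lrp receptors. In the adult brain, Lef1 is known from thalamic neurons and from the endothelial cells of brain vessels.

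RNA was taken from the brains of naïve male rats, 3 of the inbred strain BN-Lx/CubPrin (written BNLx here) and 3 of the inbred strain SHR/OlaIpcvPrin (SHR, the spontaneously hypertensive rat), and 1 library was made per rat. Ages are not given in the sources used here, and the labels give no treatment. Each library came from 1 ug of RNA and was read as pairs of 100 bases without strand information. The labels give whole brain as the source of every sample, and they name a HiSeq2000 where the methods name a HiSeq2500. Libraries were spread over 3 lanes, of which 2 held 3 libraries and the last held all 6, and the assignment of libraries to lanes is not stated. Replicate numbers only name the rats, and values below follow their order (1, 2, 3) within each strain.

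Among the 6 libraries, SHR replicate 1 and BNLx replicate 3 differed most from the others of their strain. Total expected counts ranged from 11747048 to 41333078 per library. Across genes, log2 levels of BNLx replicates 1 and 2 correlated at 0.98 and those of SHR replicates 2 and 3 at 0.98, but BNLx replicate 3 reached only 0.88 to 0.92 and SHR replicate 1 only 0.91 to 0.94 with any other library, next to 0.93 to 0.94 across strains among the remaining 4. Cortical markers went against the whole-brain label in both. Neurod6, a transcription factor of cortical projection neurons, was at 3.78 TPM (an RSEM abundance corrected for transcript length) in BNLx replicate 3 and 14.2 TPM in SHR replicate 1 against 51.3 to 72.2 TPM in the remaining 4. Lamp5, a membrane protein of cortical neurons, was at 23.4 TPM in BNLx replicate 3 and 130 TPM in SHR replicate 1 against 189 to 280 TPM in the remaining 4. En2, a gene of midbrain and cerebellum, lay between 0 and 0.93 TPM in all 6. The strain comparisons of Drd2, Lef1 and the gene lists are therefore given with and without these 2 libraries.

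On the rn6 assembly, the Drd2 locus (STRG.30951, ENSRNOG00000008428) spans 64866 bases of the plus strand of chromosome 8, from 53678777 to 53743642. It holds 2 annotated transcripts. STRG.30951.1 (ENSRNOT00000045944) has 8 exons and 2747 bases. STRG.30951.2 (ENSRNOT00000083419) has 7 exons and 2443 bases, starts 217 bases further downstream and lacks exon 6. That exon, at 53737768 to 53737854, has 87 bases, or 29 codons, and its presence is what separates the long from the short form of the D2 receptor. Both transcripts end at the same base.

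The Lef1 locus (STRG.11323, ENSRNOG00000010121) spans 111818 bases of the plus strand of chromosome 2, from 236233239 to 236345056, and holds 3 transcripts with a common start. STRG.11323.1 (ENSRNOT00000013694) has 12 exons and 2578 bases. STRG.11323.2 and STRG.11323.3 were added by the assembly from these libraries and carry no reference name. STRG.11323.2 has 11 exons and lacks exon 11, a stretch of 41 bases at 236327697 to 236327737. STRG.11323.3 has 10 exons and lacks both exon 11 and exon 6, the latter a stretch of 84 bases, or 28 codons, at 236314265 to 236314348. Both end at 236345029, which is 27 bases before the end of STRG.11323.1. The 41 bases of exon 11, unlike the 84 of exon 6, are not a whole number of codons. No 3′ end added by aptardi, the authors' program for polyA sites, lies in either locus.

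The 250 bases before the start of each gene are shown so that the promoters of genes with such different high libraries can be set side by side. Sequences are those of RefSeq for the assembly GRCr8, where both genes were found, and are not in the coordinates of the deposited annotation. Capitals mark the GC box GGGCGG, searched on both strands. Drd2 lies at chr8:58605153-58605402 and Lef1 at chr2:222340463-222340712, both on the plus strand.
Drd2: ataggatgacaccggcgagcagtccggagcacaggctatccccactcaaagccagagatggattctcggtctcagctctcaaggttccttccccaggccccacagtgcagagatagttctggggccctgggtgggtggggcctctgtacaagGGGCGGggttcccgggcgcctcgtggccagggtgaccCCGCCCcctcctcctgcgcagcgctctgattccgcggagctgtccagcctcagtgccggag
Lef1: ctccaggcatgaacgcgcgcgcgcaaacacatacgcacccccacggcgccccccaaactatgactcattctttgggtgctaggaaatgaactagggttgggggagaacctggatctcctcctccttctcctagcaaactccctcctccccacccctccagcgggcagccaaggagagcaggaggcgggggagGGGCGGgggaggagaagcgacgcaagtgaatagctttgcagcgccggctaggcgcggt
The Drd2 stretch has 66% G and C, more than 86.2% of promoters, and 14 CpG pairs. The Lef1 stretch has 63.2% G and C, more than 81.3% of promoters, and 17 CpG pairs, where the median promoter has 5. The GC box occurs at 2 places before Drd2 and 1 before Lef1, and 30.5% of 33469 promoters hold it. The core CTTTGA that Lef and Tcf proteins bind, searched on both strands, occurs at 1 place before Drd2 and at 0 before Lef1, and 13.9% of promoters hold it. The TATA box TATAAA occurs before neither gene and in 12.9% of promoters. These matches are a description of the letters.

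Drd2 was far higher in SHR replicate 1 than in any other library. By replicate, 422, 143 and 146 counts were assigned to it in BNLx and 3418, 158 and 99 in SHR. Scaled to library size (CPM, with TMM scaling), these were 13.1, 12.5 and 11.2 CPM in BNLx and 79.3, 7.49 and 4.54 CPM in SHR. SHR replicate 1 was thus the highest library, the BNLx libraries lay close together below it, and SHR replicates 2 and 3 were the lowest. The 95% counting intervals of the BNLx libraries overlapped, at 11.9 to 14.4, 10.5 to 14.7 and 9.49 to 13.2 CPM. The intervals of SHR replicate 2 (6.37 to 8.75 CPM) and SHR replicate 3 (3.69 to 5.52 CPM) overlapped neither each other nor those of BNLx. These are exact Poisson intervals, and here as below an interval covers counting error only.

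The level of Drd2 in SHR replicate 1 was 6.07 times that of the next highest library and 13.2 times the mean of the other SHR libraries. Over all 6 libraries the mean was 12.3 ± 0.934 CPM in BNLx and 30.5 ± 42.4 CPM in SHR (SD, n = 3 each), a log2 ratio of 1.31 for SHR over BNLx. The SD of SHR exceeded its mean. With both libraries that stand apart left out, the means were 12.8 ± 0.429 CPM in BNLx and 6.01 ± 2.09 CPM in SHR (SD, n = 2 each), and the log2 ratio turned to -1.09. The direction of the strain difference in Drd2 thus rested on 1 library: without SHR replicate 1 alone the log2 ratio was -1.03.

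Lef1 was far higher in BNLx replicate 3 than in any other library. By replicate, 177, 66 and 906 counts were assigned to it in BNLx and 196, 120 and 104 in SHR. Scaled, these were 5.48, 5.75 and 69.7 CPM in BNLx and 4.55, 5.69 and 4.77 CPM in SHR. The 5 libraries other than BNLx replicate 3 lay between 4.55 and 5.75 CPM in both strains, and each of their 95% counting intervals overlapped all the others, so no order is given among them.

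The level of Lef1 in BNLx replicate 3 was 12.1 times that of the next highest library and 12.4 times the mean of the other BNLx libraries. The mean was 27 ± 37 CPM in BNLx and 5 ± 0.604 CPM in SHR (SD, n = 3 each), a log2 ratio of -2.43 for SHR over BNLx. With both libraries that stand apart left out, it was 5.62 ± 0.191 CPM in BNLx and 5.23 ± 0.652 CPM in SHR (SD, n = 2 each), a log2 ratio of -0.10. Leaving out BNLx replicate 3 alone gave -0.17. In SHR replicate 1, where Drd2 was at its highest, Lef1 was at 4.55 CPM and did not stand out.

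**Figure D1:**
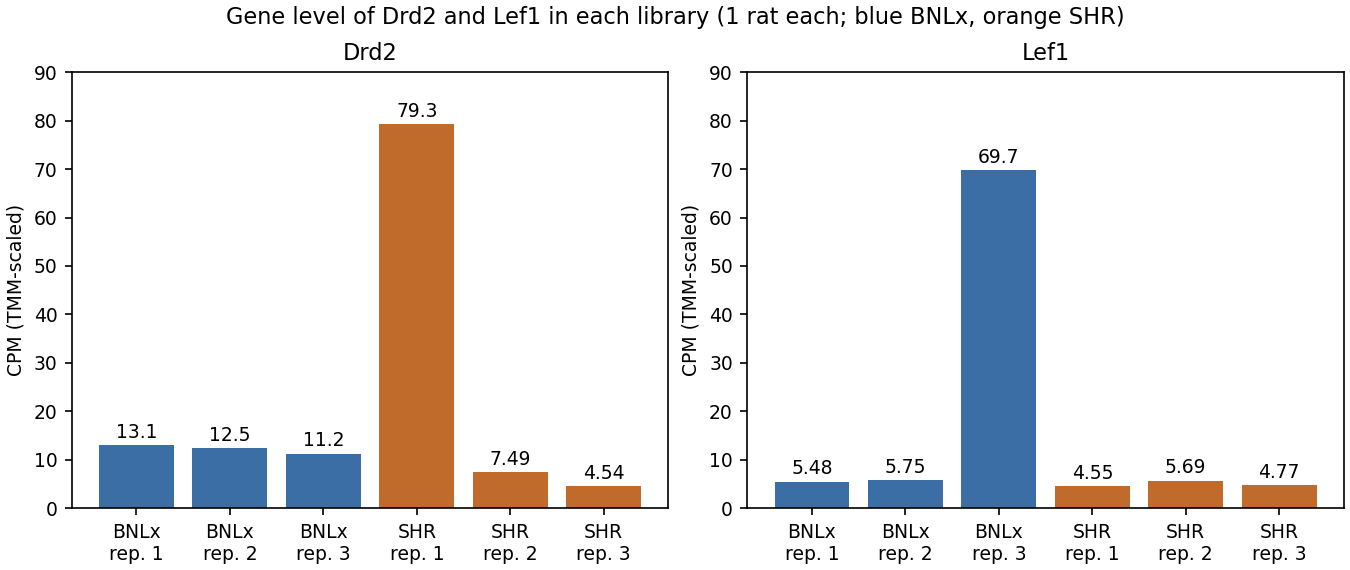
Gene level of Drd2 (left) and Lef1 (right) in CPM, 1 bar per library of 1 rat, BNLx in blue and SHR in orange. Drd2 reaches 79.3 CPM in SHR replicate 1 and lies between 4.54 and 13.1 CPM elsewhere, and Lef1 reaches 69.7 CPM in BNLx replicate 3 and lies between 4.55 and 5.75 CPM elsewhere.

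On the scale of TPM, which allows genes to be compared, Drd2 was at 67.5 TPM in SHR replicate 1 and at 4.04 to 10.6 TPM in the other 5 libraries. Lef1 was at 64.4 TPM in BNLx replicate 3 and at 3.97 to 5.39 TPM in the other 5. At their highest the 2 genes thus stood at like levels, and in BNLx replicates 1 and 2 Drd2 (10.6 TPM in each) was above Lef1 (4.48 and 4.87 TPM). In bulk tissue, fewer cells of a type and less RNA per cell cannot be told apart.

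Both receptor forms were high in SHR replicate 1, at 40.8 CPM for STRG.30951.1 and 38.5 CPM for STRG.30951.2. The transcript with exon 6, STRG.30951.1, held 47.6%, 35.8% and 57.8% of the Drd2 counts in BNLx and 51.5%, 30.8% and 59.5% in SHR. The share in SHR replicate 1 lay inside the range of the other libraries, with a 95% binomial interval of 49.8 to 53.1% from 3418 counts. The BNLx mean was 47.1 ± 11% and the SHR mean 47.3 ± 14.8% (SD, n = 3 each), a difference smaller than the spread within either strain. Within a strain the libraries differed by more: the lowest share of SHR, in replicate 2, had an interval of 24.3 to 38.6%, and the highest, in replicate 3, had 49.7 to 68.7%. These intervals treat estimated counts as reads, although the estimate divides reads of exons that both transcripts share, so they are too narrow. All Drd2 counts belong to transcripts with the same 3′ end.

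Lef1 counts in BNLx replicate 3 were mostly assigned to a transcript that was at 0 in every other library. STRG.11323.2, which keeps exon 6 and lacks exon 11, had 597 expected counts there, or 65.9% of the gene (95% binomial interval 62.7 to 68.9%). In the other 5 libraries it had 0 expected counts. With 3 counts of the gene's total as the limit that a count of 0 allows, its share could reach 1.69% and 4.55% in BNLx replicates 1 and 2. In SHR it could reach 1.53%, 2.5% and 2.88%. These limits and the interval treat all counts of the gene as reads that tell the transcripts apart. The estimate divides reads of exons that the transcripts share, so the limits are too low and the interval is too narrow. The reference transcript STRG.11323.1 held 82.3%, 90.8% and 32.6% in BNLx and 69.6%, 77.2% and 74.4% in SHR. It was thus the main form of Lef1 in every library but BNLx replicate 3.

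The third Lef1 transcript, STRG.11323.3, which lacks exons 6 and 11, held 17.7%, 9.2% and 1.51% in BNLx and 30.4%, 22.8% and 25.6% in SHR. All 3 SHR libraries lay above all 3 BNLx libraries. Its BNLx mean was 9.48 ± 8.12% and its SHR mean 26.3 ± 3.84% (SD, n = 3 each). These shares rest on few reads, since the SHR libraries hold 113.6 expected counts of STRG.11323.3 in all and the BNLx libraries 51.1. Exon 6 was in 98.5% of Lef1 counts in BNLx replicate 3 and in 69.6 to 90.8% elsewhere. The earlier 3′ end at 236345029, used by the transcripts without exon 11, held 67.4% in BNLx replicate 3 and 9.2 to 30.4% elsewhere, and the 2 ends lie closer together than the length of a read.

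**Figure D2:**
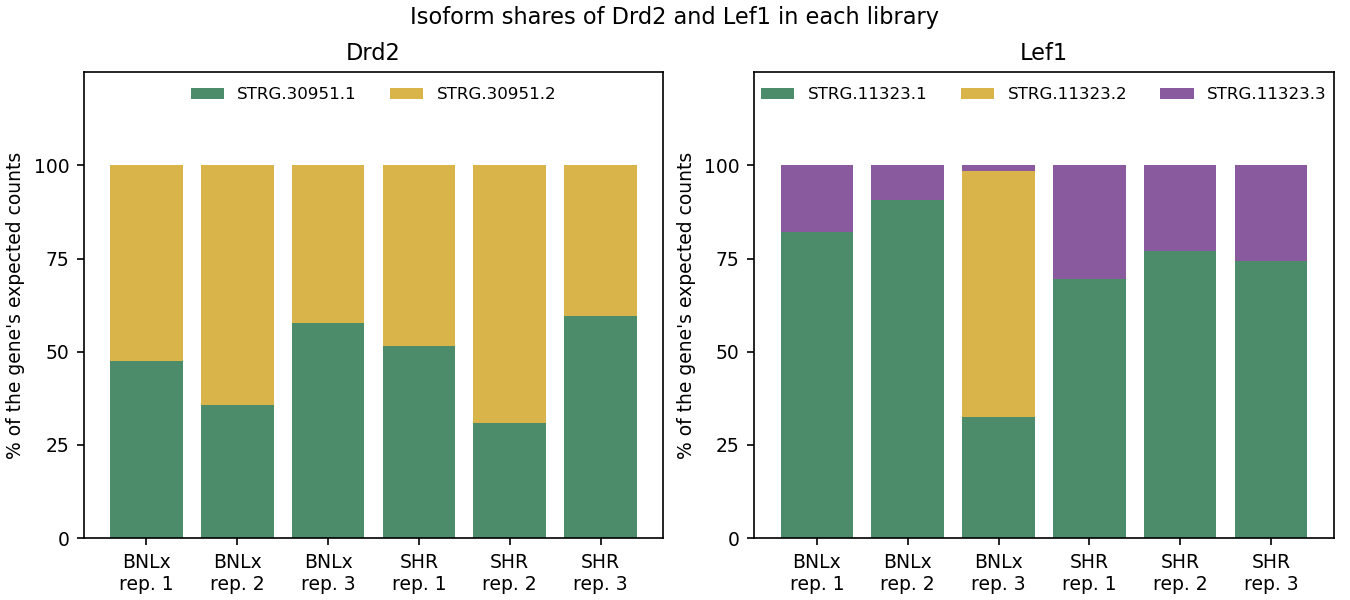
Share of the expected counts of Drd2 (left) and Lef1 (right) held by each transcript, as % of the gene in each library. The Drd2 transcript with exon 6 (green) ranges from 30.8 to 59.5% with no split by strain, and the Lef1 transcript STRG.11323.2 (yellow) holds 65.9% in BNLx replicate 3 and 0 in the others.

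Around both genes, 27 lists of genes of the dopamine and Wnt pathways and of brain cell types were followed. They name 350 genes besides Drd2 and Lef1, of which 121 have a quantified locus of their own with a name. Genes of the other dopamine receptors, tyrosine hydroxylase, DARPP-32, Adora2a and Tcf7l2 are among those not analysed here. A gene was said to stand out in a library when it was at least 2-fold above, or at least 2-fold below, every other library in CPM, with a mean of at least 1 CPM. SHR replicate 1 stood out as higher for 17 of the 121 listed genes (14%), where the share over all 7509 loci with 1 gene name was 0.799%, and as lower for 2 genes (1.65%, against 0.439% of all). BNLx replicate 3 stood out as higher for 14 genes (11.6%, against 1.08% of all) and as lower for 17 genes (14%, against 2.4% of all). The 7509 loci include loci with a mean under 1 CPM, which could not be called, while most listed genes reached that minimum. Shares over all loci with 1 gene name, here and below, are thus low for this comparison. The mean includes the high library: for 6 of the 17 genes high in SHR replicate 1 and 7 of the 14 high in BNLx replicate 3, the mean of the other 5 libraries was under 1 CPM. The lists were drawn up with these libraries known, so the counts are descriptions.

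Genes of striatal spiny neurons stood beside Drd2 in SHR replicate 1. Of the D2-type list, Gpr6, an orphan receptor of the indirect pathway, was at 8.71, 6.65 and 1.38 TPM in BNLx and at 36.2, 6.29 and 4.05 TPM in SHR. Sp9, a factor needed for D2-type neurons, was at 11.5 TPM in SHR replicate 1 and at 0.51 to 2.79 TPM elsewhere. Both stood out as higher in SHR replicate 1 and as lower in BNLx replicate 3, whereas Oprd1, the delta opioid receptor, was at 3.13 TPM in SHR replicate 1 and stood out only as lower in BNLx replicate 3, at 0.67 TPM. The main transcript of Penk, the enkephalin precursor (STRG.19596.1, in a locus with several names), was at 905 TPM in SHR replicate 1, at 54.8 TPM in BNLx replicate 3 and at 98.7 to 183 TPM in the other 4. A second Penk transcript, STRG.19596.2, was at 21, 26.6 and 7.31 TPM in BNLx and at 40.6, 6.65 and 6.74 TPM in SHR. Both Penk transcripts thus had the same highest library as Drd2, with a smaller step for the second. The lowest library was BNLx replicate 3 for the main transcript, while the second was low in SHR replicates 2 and 3, as Drd2 was, and in BNLx replicate 3.

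Genes of the D1-type spiny neurons were also high in SHR replicate 1. Tac1, the substance P precursor, was at 272 TPM there and at 17 to 82.4 TPM elsewhere, with 82.4 TPM in BNLx replicate 3. Pdyn, the dynorphin precursor, was at 133 TPM in SHR replicate 1, at 2.59 TPM in BNLx replicate 3 and at 25.7 to 46.8 TPM in the rest. Isl1, a factor of D1-type and cholinergic neurons, was at 12.8 TPM in SHR replicate 1 and at most 1.5 TPM elsewhere. Of this list, 3 of 5 genes stood out as higher in SHR replicate 1, and Chrm4, a muscarinic receptor, was among those that did not. Isl1 reached the minimum mean of 1 CPM only through SHR replicate 1. D1-type and D2-type genes thus shared the high library of Drd2.

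Among genes of both spiny types, 3 of 5 stood out as higher in SHR replicate 1. Pde1b, a phosphodiesterase, was at 405 TPM there and at 123 to 143 TPM elsewhere, and Meis2, a striatal transcription factor, was at 122 TPM against 23.8 to 39.1 TPM. Scn4b, a sodium channel subunit, was at 120 TPM against 31.5 to 57.7 TPM. The summed level of the list was 854 TPM in SHR replicate 1 and 224 to 347 TPM elsewhere, a smaller step than that of Drd2, which made up 7.9% of this sum in SHR replicate 1 and 1.46 to 4.49% in the other libraries.

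Cholinergic genes and a part of the hypothalamic genes were high in the same library. Lhx8, a factor of forebrain cholinergic neurons, was at 20.8 TPM in SHR replicate 1 and at most 0.83 TPM elsewhere. Slc5a7, the choline transporter, was at 22.2 TPM against 1.14 to 6.24 TPM. Lhx8 reached the minimum mean of 1 CPM only through SHR replicate 1. Avp, the vasopressin precursor, was at 36.2 TPM in SHR replicate 1 and at 0.43 to 3.27 TPM elsewhere. Of 9 hypothalamic genes, 4 stood out as higher in SHR replicate 1 (Oxt, Avp, Nkx2-1 and Cartpt). The first 3 of them reached the minimum mean of 1 CPM only through that library. Of the same list, 2 genes stood out as higher in BNLx replicate 3, both reaching the minimum mean only through it, and 1 as lower there. The part of these other cell types in the level of Drd2 was not tested.

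In BNLx replicate 3 the spiny neuron genes were divided, and Drd2 was not among those that were low. It was at 10.05 TPM there, next to 10.6 TPM in each of the other BNLx libraries. Gpr6, at 1.38 TPM, and Pdyn, at 2.59 TPM, were below every other library. Scn4b, at 57.7 TPM, and Pde1b, at 134 TPM, were close to the other BNLx libraries as Drd2 was, and Tac1 was above them. Against the summed level of Gpr6, Sp9 and Oprd1, Drd2 stood at 393% in BNLx replicate 3, at 133% in SHR replicate 1 and at 33.2 to 85.3% in the other 4. Of the 2 dopamine neuron genes with a locus, Ret, a receptor of neurotrophic factors of the GDNF family, was at 12.6 TPM in BNLx replicate 3 and at 1.26 to 3.57 TPM elsewhere. Nr4a2, a factor that dopamine neurons need and that cortical cells also express, was at 12.5 TPM there, at 4.84 TPM in SHR replicate 1 and at 33.8 to 58 TPM in the other 4. The part of dopamine neurons in the Drd2 of BNLx replicate 3 was not tested.

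Genes that carry the D2 signal had no such step. Of 28 listed, 7 have a locus of their own and 0 stood out in either library. Gnai1 and Gnai2, inhibitory G protein subunits, ranged from 105 to 149 TPM and from 188 to 263 TPM. Kcnj3, a subunit of the potassium channel that the receptor opens, was lowest in SHR replicate 1, at 22 TPM, and at 29.6 to 75.8 TPM elsewhere.

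A part of the thalamic list stood beside Lef1 in BNLx replicate 3. Synpo2, an actin-binding protein, was at 42.2 TPM there and at 1.21 to 2.18 TPM in the other 5 libraries. Gbx2, a homeobox factor of the developing thalamus, was at 23.2 TPM in BNLx replicate 3, at 5.38 TPM in SHR replicate 1 and at 0 to 0.56 TPM in the rest, and Ntng1, a netrin-G of thalamic axons, was at 105 TPM against 10.4 to 31.6 TPM. These 3 of 6 genes stood out as higher in BNLx replicate 3. Gbx2 reached the minimum mean of 1 CPM only through that library. Zic1 did not stand out, with 83.2 TPM in BNLx replicate 3 and 70.4 TPM in SHR replicate 1. It was at 7.56 to 12.1 TPM in the other 4. Lhx2, a homeobox factor that cortex also expresses, went the other way, at 16.3 TPM in BNLx replicate 3, 23.9 TPM in SHR replicate 1 and 53 to 71.6 TPM in the other 4. Necab1, a calcium-binding protein with the highest mean of the list, had no 2-fold step, at 92.4 TPM in BNLx replicate 3 and 43.6 to 88.7 TPM elsewhere.

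Lef1 had a larger step than the summed thalamic list. The summed level of the 6 thalamic genes was 363 TPM in BNLx replicate 3 and 141 to 200 TPM elsewhere, and Lef1 stood at 17.8% of that sum in BNLx replicate 3 and at 2.19 to 3.18% in the other libraries. Other lists had members that stood out there too. Chrna3, a nicotinic receptor subunit of the habenula, was at 32.2 TPM in BNLx replicate 3 and at 0.99 to 4.36 TPM elsewhere. Of the 2 habenula genes with a locus, the other stood out as higher in SHR replicate 1 instead. The summed habenula list was thus highest in SHR replicate 1, at 104 TPM, with 73.1 TPM in BNLx replicate 3 and 30.8 to 34.5 TPM elsewhere. All 6 cortical genes stood out as lower in BNLx replicate 3, with a summed level of 51.1 TPM there, 291 TPM in SHR replicate 1 and 653 to 781 TPM in the other 4.

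The vascular genes did not move with Lef1. Of 9 genes of brain endothelial cells with a locus of their own, 0 stood out in either library, and their summed level ranged from 273 to 344 TPM over all 6. Slco1c1, a thyroid hormone transporter of brain vessels, was at 50.6 to 60.1 TPM, with 53.3 TPM in BNLx replicate 3. Lef1 stood at 1.15 to 1.78% of the endothelial sum in 5 libraries and at 18.8% in BNLx replicate 3. Cd2, the 1 gene of T cells with a locus, another cell type known for Lef1, was at 0.48 TPM in BNLx replicate 3 and at 0.09 to 0.63 TPM elsewhere.

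**Figure D3:**
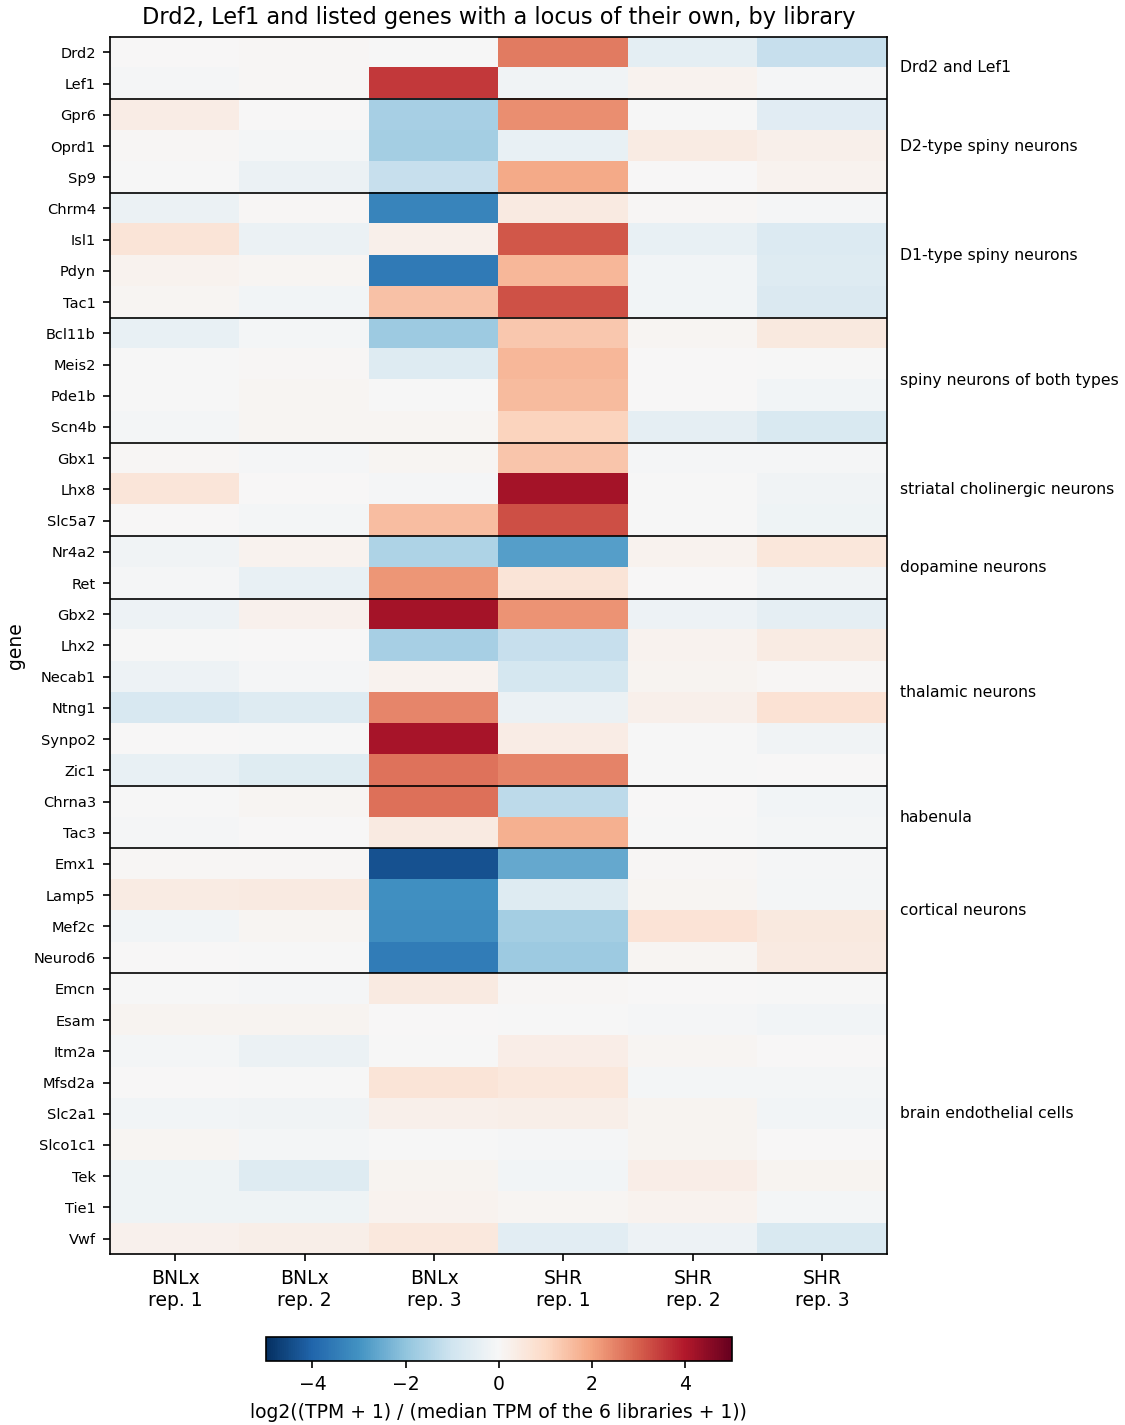
Level of Drd2, Lef1 and genes of 9 lists with a locus of their own in each library, as log2 of (TPM + 1) over the median of the 6 libraries + 1, with red above and blue below the median. Drd2 is red in SHR replicate 1 with most spiny and cholinergic genes, Lef1 is red in BNLx replicate 3 with Gbx2, Synpo2, Ntng1 and Zic1, the cortical genes are blue there, and the endothelial genes are pale in all libraries.

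In the Wnt pathway, 1 of 12 ligand, 3 of 10 receptor and 2 of 7 inhibitor genes stood out as higher in BNLx replicate 3, against 1.08% of all loci with 1 gene name. Of these, Wnt2b, Fzd5 and Dkk2 reached the minimum mean of 1 CPM only through that library. Among ligands and R-spondins, Wnt2b was at 6.79 TPM in BNLx replicate 3 and at 0.44 to 1.4 TPM elsewhere. Wnt10a was low there, at 0.44 TPM, and at 2.02 to 10.9 TPM elsewhere. Wnt7b, the ligand with the highest mean level, was at 14.1, 15.4 and 15.8 TPM in BNLx and 22.5, 24 and 32.2 TPM in SHR (log2 0.73, adjusted p = 0.141 from edgeR), and the strains did not overlap.

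Among receptors, Fzd6 was at 6.67 TPM in BNLx replicate 3 against 1.74 to 2.6 TPM elsewhere, Fzd5 at 3.52 against 1.12 to 2.62 TPM, and Lgr5, an R-spondin receptor that is also a target of the pathway, at 8.34 against 1.81 to 3.41 TPM. For Fzd5 the step was smaller in TPM than in CPM, where BNLx replicate 3 was 2.25 times the next highest library. Among inhibitors, Sfrp2 was at 20.2 TPM in BNLx replicate 3 and at 3.03 to 4.62 TPM elsewhere, and Dkk2 at 2.75 against 0.37 to 0.94 TPM. Only 2 of 20 genes of the beta-catenin core have a locus of their own, and neither stood out. Ctnnb1, the gene of beta-catenin, lay between 178 and 289 TPM, with the highest value in BNLx replicate 3, and Dvl1 between 56 and 61.7 TPM. Tcf7l1, the 1 other gene of the Lef and Tcf family with a locus of its own, was at 4.69 to 7.69 TPM, with the highest value in BNLx replicate 3 and no 2-fold step.

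**Figure D4:**
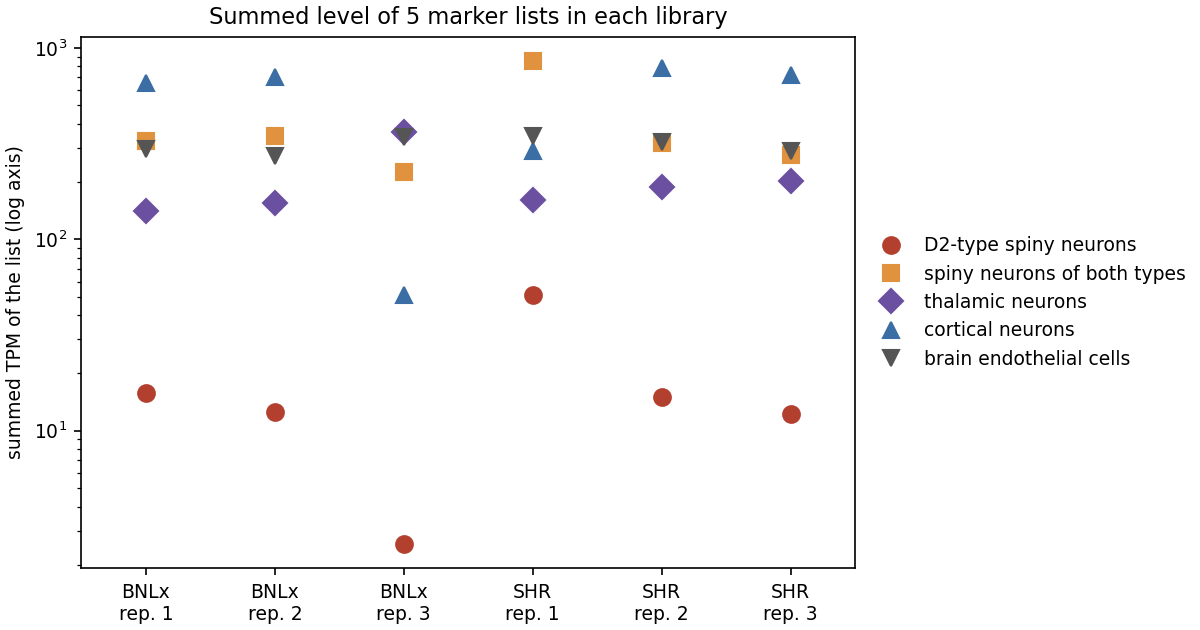
Summed TPM of 5 marker lists in each library on a log axis, 1 symbol per list. The D2-type and common spiny lists are highest in SHR replicate 1 (50.9 and 854 TPM), the thalamic list is highest in BNLx replicate 3 (363 TPM), where the cortical list is at 51.1 TPM, and the endothelial list stays between 273 and 344 TPM.

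The strains were then compared for the listed genes, which leaves out Drd2 and Lef1. In the quasi-likelihood test of edgeR over all 14471 genes past the filter, 1.02% had an adjusted p of 0.05 or less. Among the listed genes that passed the filter, 0 rose and 0 fell, and 6 had an unadjusted p under 0.05 with edgeR. Over all genes, 1478 of 14471 had such an unadjusted p. DESeq2 called 3 listed genes (Vwf and Mobp lower and Wnt7b higher in SHR) and 543 of 14433 genes in all. Neither count of listed genes was a larger share of those tested than the share over all genes. Of the spiny, thalamic and Wnt lists, 0 of 3 D2-type, 0 of 4 D1-type, 0 of 5 common spiny, 0 of 5 thalamic, 0 of 9 ligand, 0 of 8 receptor and 0 of 6 inhibitor genes passed with edgeR. The median log2 ratio was 1.4 for the D2-type list and -0.24 for the thalamic list, against 0.00 over all genes. With both libraries that stand apart left out, the D2-type median turned to -0.26 and the thalamic one to 0.2.

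Without those libraries, 31.5% of 13932 genes had an adjusted p of 0.05 or less with edgeR, and of 95 listed genes tested 7 rose and 14 fell, a share below that of all genes. With n = 2 each, 0 of 3 D2-type, 1 of 4 D1-type and 3 of 5 common spiny genes passed, all lower in SHR. These lists are too small to set their shares apart from the 31.5% of all genes. The Drd2 values, which were not tested, were lower in SHR too. The log2 ratio was -0.78 for Scn4b (adjusted p = 0.00526 from edgeR), -0.70 for Pdyn (adjusted p = 0.0238) and -0.25 for Pde1b (adjusted p = 0.0344). Gpr6, at a log2 ratio of -0.77, did not pass (adjusted p = 0.0631 from edgeR), nor did Sp9 at -0.26 (adjusted p = 0.369). Some spiny genes went the other way without passing, Oprd1 among them at 0.21 (adjusted p = 0.484 from edgeR). Of the thalamic list Ntng1 rose by 1.3 (adjusted p = 0.00461 from edgeR), and Lef1 had no such step. In the Wnt lists Wnt7b (log2 0.80, adjusted p = 0.0154 from edgeR), Lrp6, a co-receptor (0.60, adjusted p = 0.00393), and Fzd1 (0.89, adjusted p = 0.0192) rose, and Wnt10a (-1.07, adjusted p = 0.00437) and Wnt16 (-0.97, adjusted p = 0.0174) fell.

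Genes most like Drd2 across the 6 libraries were sought among 4654 loci with 1 name and a mean of at least 100 counts, by Pearson correlation of log2(CPM + 1). Among the closest were Prkd1, a protein kinase (r = 0.99), Gad1, which makes GABA (0.99), Scn4b (0.98) and Ehd4, a membrane trafficking protein (0.98). These correlations are a description over 6 points that share 1 high library. Without SHR replicate 1, over 5 libraries, r was 0.96, 0.93, 0.97 and 0.89 for these genes. Their sizes of step differed: SHR replicate 1 was 2.05 times the next highest library for Scn4b, 1.86 times for Gad1 and 1.17 times for Ehd4, all below the step of Drd2.

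Genes most like Lef1 were Grip2, a scaffold of glutamate receptors (r = 0.99), Tal1, a transcription factor of blood and midbrain GABA neurons (0.99), Synpo2 (0.98), Lrrc75b (0.98) and Lims1, a focal adhesion protein (0.98). Without BNLx replicate 3, over 5 libraries, r was 0.81 for Grip2, -0.18 for Tal1, -0.37 for Synpo2, -0.41 for Lrrc75b and 0.74 for Lims1. For Tal1, Synpo2 and Lrrc75b the likeness was thus a matter of 1 library. Tal1 was at 17.9 CPM in BNLx replicate 3 and at 2.53 to 3.1 CPM elsewhere, and Synpo2 was 18.3 times the next highest library.

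Ttc12, Hadh and the locus of Tmprss5 and Zw10, the neighbours with a level in every library, did not share the step of Drd2 or Lef1. Ttc12, which lies on the other strand and ends 27038 bases beyond Drd2, was at 2.85, 1.31 and 5.31 CPM in BNLx and 4.85, 2.09 and 2.15 CPM in SHR (log2 -0.05, adjusted p = 0.99 from edgeR). On the other side, 247993 bases away, the locus of Tmprss5 and Zw10 was at 18.9 to 37.6 CPM, with 22.8 CPM in SHR replicate 1. Hadh, a mitochondrial enzyme of fat oxidation that ends 8388 bases beyond Lef1, was at 28.9 CPM in BNLx replicate 3 and at 16.5 to 27.6 CPM elsewhere (log2 -0.46, adjusted p = 0.479 from edgeR). The named locus before Lef1, AABR07013410.3, had counts in BNLx replicate 3 alone, at 0.15 CPM.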

How the data were processed

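PolyA RNA of rat brain was measured in 6 libraries (3 BNLx, 3 SHR). The authors trimmed reads with cutadapt, aligned them with HISAT2 to strain genomes made from rn6, built a transcriptome with StringTie 1.3.5 on the basis of Ensembl 99, extended it with 3′ ends from aptardi and ran RSEM. Deposited per gene and transcript are expected counts, not normalized, and TPM, scaled by the authors within each library. RSEM's FPKM and isoform percentages were not used. Names come from reference transcripts in the deposited annotation.

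Expected counts were rounded. The main model was edgeR 4.0.16 under R 4.3.3 (TMM, two-sided quasi-likelihood test, strain as the only term) for genes with at least 50 counts in 2 of 3 replicates of at least 1 strain. P-values were Benjamini-Hochberg adjusted over all genes, with a threshold of 0.05. DESeq2 1.42.0, limma 3.58.1 on log2(TPM + 1), other scalings and filters, a replicate block and left-out libraries were alternatives. The fit was tested on simulated data.

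Drd2, Lef1 and the lists were chosen with earlier results of these data known. Named were both genes with each transcript, per list the genes past the threshold and up to 4 with the highest mean TPM, the nearest named loci and the 5 most alike genes. Lists that bear on neither gene are given by counts, and genes that stood out in a library were named after their values were seen. Some genes that the rule names are not reported here. Replicate numbers did not pair the libraries: same-numbered libraries correlated at -0.04, 0.32 and -0.2 in their deviations from the strain means.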

Additional observations from a re-analysis of the deposited data

How the results depend on the processing

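The log2 ratio of Drd2, SHR over BNLx, kept its direction with DESeq2 size factors, total counts and TPM. On leaving out each library in turn it ranged from -1.03 (without SHR replicate 1) to 1.82, and it was -1.09 with both libraries that stand apart left out. That of Lef1 ranged from -2.92 to -0.17 (without BNLx replicate 3) and was -0.10 with both left out. The SHR minus BNLx difference in the share of STRG.30951.1 was 0.18 percentage points. It ranged from -5.96 (SHR replicate 3 left out) to 8.41, with -5.46 when BNLx replicate 2 and -1.92 when SHR replicate 1 was left out. The difference in the earlier Lef1 3′ end was -5.17 points, 12.8 without BNLx replicate 3 (range -16.3 to 12.8) and 10.8 with both left out. Depth limits these shares, since some rest on under 100 counts of a gene.

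Genes that passed between strains numbered 147 with edgeR, 543 with DESeq2, 20 to 152 on leaving out a library and 4393 with both left out. With the replicate block in the edgeR fit it was 0, and the numbers share nothing but a name. Listed genes that passed numbered 0 with edgeR, with other size factors, without the filter, with limma and with the replicate block, 3 with DESeq2, 0 to 1 on leaving out a library (Reln higher without SHR replicate 1, adjusted p = 0.038 from edgeR) and 21 with both left out. The cause of these changes was not tested.

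Alternatives for the 2-fold calls were chosen after seeing the data. With DESeq2 size factors, total counts or TPM, 16 to 20 listed genes stood out as higher in SHR replicate 1, 14 as higher and 17 as lower in BNLx replicate 3. At 3-fold these were 11, 10 and 16.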

Other observations

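Other lists differed in their pattern. Of the choroid plexus, the epithelium that makes cerebrospinal fluid, 0 of 4 genes stood out in SHR replicate 1 or BNLx replicate 3, but Sostdc1, a secreted inhibitor of BMP and Wnt signals, was at 25.4, 0 and 44.7 TPM in BNLx and at 27.9, 0 and 9.17 TPM in SHR. Its order followed neither Drd2 nor Lef1. The newborn neuron list was mixed, with 2 of 6 genes standing out as higher in SHR replicate 1, the high library of Drd2, and 2 as lower in BNLx replicate 3. Igfbpl1 was at 17.6 TPM in SHR replicate 1 and at 1.1 to 8.38 TPM elsewhere, and Sp8 was at 4.61 TPM against 0.08 to 0.75 TPM. Sp8 reached the minimum mean of 1 CPM only through SHR replicate 1. Dcx, a microtubule protein of migrating neurons, stayed between 7.19 and 11.9 TPM.

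Of 5 oligodendrocyte, 5 microglial and 2 astrocyte genes, 0 stood out in either library by the 2-fold rule in CPM. In TPM, Ermn, a protein of myelinating oligodendrocytes, was at 198 TPM in BNLx replicate 3 and at 52.5 to 93.3 TPM elsewhere, and the summed oligodendrocyte list was at 5824 TPM there and at 1723 to 3878 TPM elsewhere. Mobp, a myelin protein, was at 919, 665 and 1610 TPM in BNLx and 567, 519 and 354 TPM in SHR, and it did not pass between strains (log2 -1.39, adjusted p = 0.225 from edgeR, 0.00394 from DESeq2). C1qa, a complement gene of microglia, was at 99.5 TPM in SHR replicate 1 and at 50.4 to 64.6 TPM elsewhere.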
